A study of Homo sapiens with 6 samples.

Results

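The collagen genes of MDA-MB231 cells were examined after knockdown of Ror1. They were chosen by their symbol alone, as the protein-coding genes named COL, a number, A and a number, which gave 44 of the 57445 genes in the deposited table. Collagens are secreted or membrane-bound proteins in which 3 chains wind around each other, and each chain carries long stretches in which glycine, the smallest amino acid, opens every Gly-X-Y triplet. Fibrillar collagens build the fibers of connective tissue, type IV collagen forms the sheet of the basement membrane, and other collagens sit on fiber surfaces, form beaded filaments or anchor epithelia. In tumors most interstitial collagen comes from fibroblasts, whereas carcinoma cells make their own sets of chains and must cross collagen-rich matrix when they invade.

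MDA-MB231 is an established human breast cancer line of the triple-negative type. The cells carried a pGIPZ lentiviral vector with either a non-silencing shRNA (shCTL, 3 libraries) or an shRNA against Ror1 (shRor1, 3 libraries), a receptor of non-canonical Wnt signaling. Both populations grew with 10% fetal bovine serum, were infected at a multiplicity of infection of 5.0 and were selected with 2 µg/ml puromycin. Expression of the shRNA was stable, and the knockdown rests on 1 shRNA against Ror1. The labels call the control an empty vector where the study describes a non-silencing shRNA, and the control columns of the table also bear the word DMSO, whose meaning is not given in the sources used here. Levels are given in TPM, the share of a gene in the transcripts of a library after correction for its length, and libraries are called the first, the second and the third by their order in the table because the columns have no replicate numbers. Whether that order pairs an shCTL with an shRor1 library is not stated in the sources used here. Nothing states that the libraries of a condition came from separate cultures, so p-values measure the spread between these libraries, which may be technical.

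Collagen exons show the repeat that defines the family. In the GRCh37 annotation, 474 of the 1914 inner coding exons of collagen genes (24.8%) were exactly 54 bases long, which is 6 Gly-X-Y triplets, compared with 704 of 156511 (0.45%) in other protein-coding genes. Exons whose length is a multiple of 9 bases, whole triplets, made up 64.1% of the collagen and 13.6% of the other exons. Fibrillar collagens carried the largest share of exons of 54 bases among the classes, 305 of 627 (48.6%). To show the repeat in expressed collagens of different classes, such an exon is given 5′ to 3′ on the coding strand for 6. Capitals mark the glycine codon that opens each Gly-X-Y triplet. The gga codons left in lower case in COL5A1 and COL12A1 also encode glycine.
COL5A1, fibrillar, chr9:137645696-137645749, plus strand: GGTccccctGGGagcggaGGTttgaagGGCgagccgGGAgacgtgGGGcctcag
COL4A2, basement membrane, chr13:111098176-111098229, plus strand: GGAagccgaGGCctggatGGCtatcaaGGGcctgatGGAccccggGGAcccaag
COL6A2, beaded filament, chr21:47535786-47535839, plus strand: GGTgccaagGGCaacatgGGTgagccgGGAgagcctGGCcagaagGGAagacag
COL13A1, transmembrane, chr10:71681638-71681691, plus strand: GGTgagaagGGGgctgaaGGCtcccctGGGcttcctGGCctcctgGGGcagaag
COL18A1, multiplexin, chr21:46914776-46914829, plus strand: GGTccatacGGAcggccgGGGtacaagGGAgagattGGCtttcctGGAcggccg
COL12A1, fiber-associated, chr6:75813473-75813526, minus strand: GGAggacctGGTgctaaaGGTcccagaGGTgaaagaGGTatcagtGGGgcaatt
All glycine codons start with GG, and proline codons with CC, which weights collagen coding sequence towards G and C. The exon of COL5A1 held 72.2% G and C and that of COL12A1 53.7%. Over the whole coding sequence the share was 64.4% for COL5A1 and 46.6% for COL12A1, in which only 8.23% of the codons lay in runs of at least 6 Gly-X-Y triplets. The longest unbroken run of triplets was 338 in COL1A1 and COL5A1, 339 in COL5A2, 66 in COL4A2, 87 in COL6A1 and in COL6A2, and 44 in COL13A1.

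Of the 44 collagen genes, 17 reached 1 TPM in at least 3 libraries and were tested, and 27 did not. Together the 44 genes took 400.7, 427.17 and 556.12 TPM in shCTL and 438.64, 550.87 and 670.88 TPM in shRor1, which was between 0.0401% and 0.0671% of all transcripts. The means were 461 ± 83.2 TPM (SD, n = 3) and 553 ± 116 TPM (SD, n = 3), and the ranges of the conditions overlapped. The means of the log2-transformed library totals differed by 0.26 between shRor1 and shCTL, or by 0.18 without COL13A1, the most abundant member. A few genes held most of the total. The 5 most abundant, COL13A1, COL4A2, COL6A1, COL6A2 and COL4A1, made up 76.7% of the collagen TPM in shCTL and 78.5% in shRor1.

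**Figure D1:**
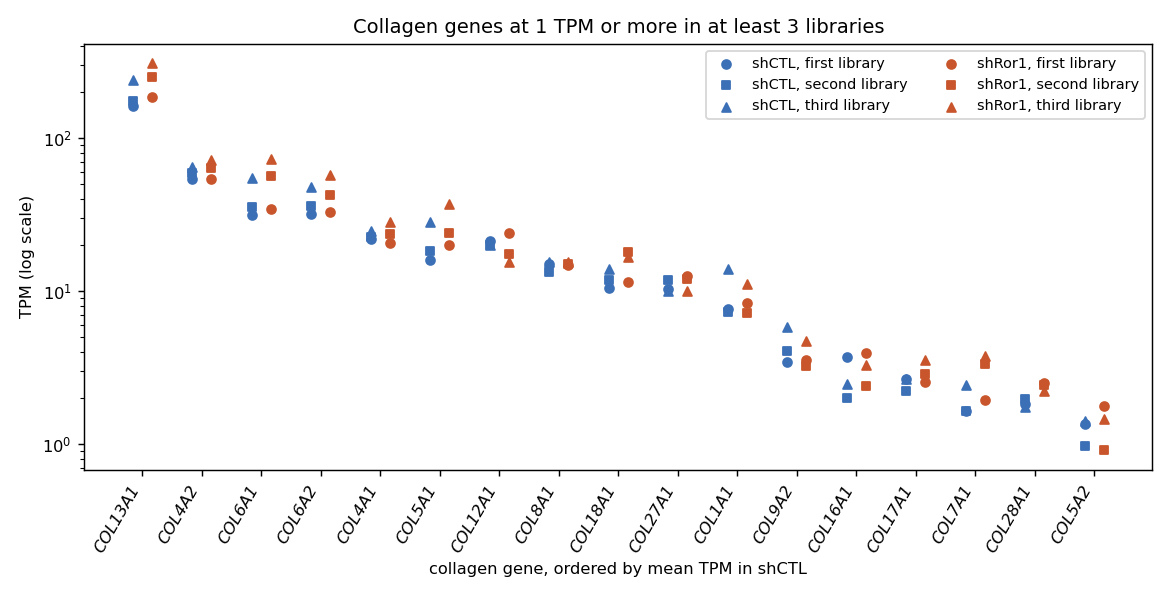
Level of each of the 17 collagen genes that were tested, in TPM on a log axis, with 1 point for each library (circles, squares and triangles are the first, the second and the third library of the table; blue, shCTL; orange, shRor1). COL13A1 stands above all others at 163.02 to 308.47 TPM, and in 16 of the 17 genes the points of both conditions overlap.

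ROR1 itself, the target of the shRNA, was measured at 15.42, 13.49 and 20.56 TPM in shCTL and 9.34, 11.93 and 14.85 TPM in shRor1. Its mean was 16.5 ± 3.65 TPM in shCTL and 12.0 ± 2.76 TPM in shRor1 (SD, n = 3), 2 shRor1 libraries lay below all shCTL libraries and the remaining one above the lowest of them. The log2 fold change on log2(TPM + 1) was -0.43 ± 0.20 (SE), and with limma and Benjamini-Hochberg adjustment over all genes the adjusted p was 0.984 (unadjusted p = 0.0649). These values are of mRNA only. The paper examined the knockdown by western blot of Ror1 protein. It also reported lower RhoA levels and less JNK phosphorylation in the knockdown cells.

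No collagen gene passed the threshold. With limma and Benjamini-Hochberg adjustment, 0 of the 17 tested collagen genes had an adjusted p below 0.05, as did 0 of all 16554 genes tested (0% called), and at an unadjusted p below 0.05 the collagen count was again 0, where 472 of all tested genes (2.85%) reached it, 2.31% higher and 0.544% lower in shRor1. The paper fitted negative binomial models in edgeR to the same comparison. It reported AGR2 and a gene for an uncharacterized protein as the only significant genes, neither a collagen. In limma the adjusted p of the collagen genes ran from 0.984 to 0.990. The 95% interval of every one of the 17 log2 fold changes included 0. The log2 fold change was above 0 in 14 members and below 0 in 3 (COL12A1, COL9A2 and COL1A1), against a background of 67% of all tested genes above 0. The median log2 fold change was 0.18 over the collagen genes and 0.05 over all genes. Scaling by median ratios or by quantiles brought the share of all genes above 0 to 50.2% and 50.5% and left 13 collagen genes above 0, since COL8A1 changed sign under both.

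**Figure D2:**
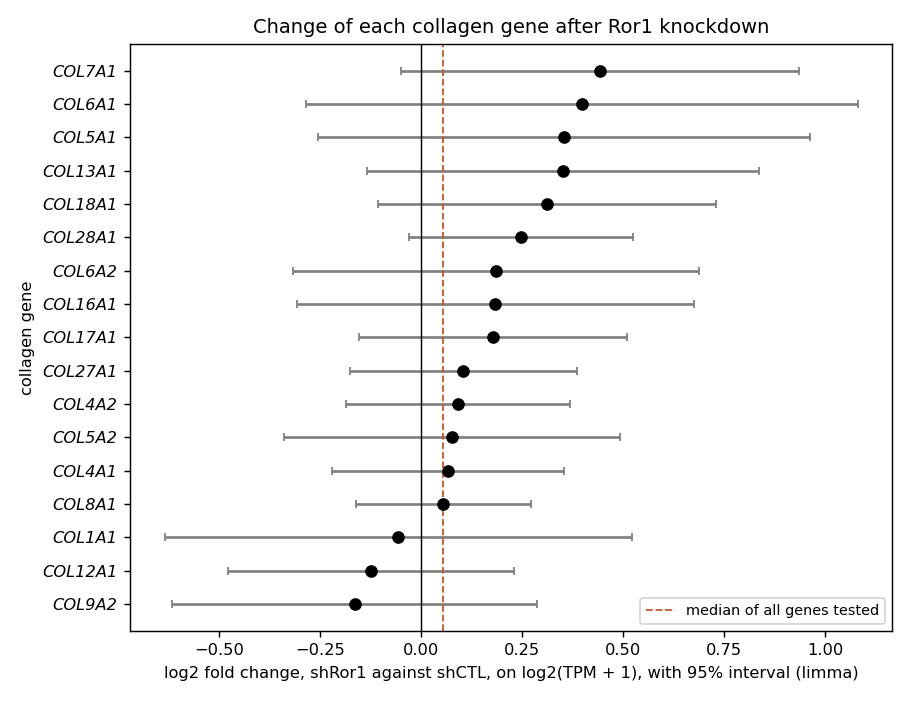
Log2 fold change of shRor1 against shCTL on log2(TPM + 1) for the 17 tested collagen genes (points), with the 95% interval of the limma fit (bars) and the median of all tested genes (dashed line, 0.05). All intervals include 0, and they run from narrow for COL8A1 to wide for COL6A1.

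In bulk libraries, a smaller share of cells that express a gene and less RNA of it per cell cannot be told apart, and this holds for all values that follow.

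Transmembrane collagens span the cell membrane and their ectodomains can be shed. COL13A1 (ENSG00000197467.9, chromosome 10, 71561636 to 71724031, plus strand), found at cell adhesions, was the most abundant collagen with 163.02, 174.27 and 240.93 TPM in shCTL and 184.64, 250.63 and 308.47 TPM in shRor1. It alone gave 41.8% of the collagen TPM in shCTL and 44.8% in shRor1, and its control mean was at or above that of 95.3% of all tested genes. In shRor1, 2 libraries lay above all shCTL libraries, and the lowest shRor1 library lay between the shCTL values. The log2 fold change was 0.35 ± 0.21 (SE; 95% interval -0.13 to 0.84), with an unadjusted p of 0.132 in limma and an exact two-sided permutation p of 0.2, where 3 against 3 libraries cannot go below 0.1. COL17A1, the collagen of hemidesmosomes, was low at 2.67, 2.23 and 2.67 TPM in shCTL and 2.55, 2.89 and 3.56 TPM in shRor1 (log2 fold change 0.18 ± 0.14, SE), again with overlapping groups. COL23A1 and COL25A1, the remaining members of the class, stayed at or below 0.11 TPM.

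Type IV collagen is the network of the basement membrane. COL4A2 (ENSG00000134871.13, chromosome 13, 110958159 to 111165556, plus strand) was second in abundance with 53.79, 59.52 and 64.42 TPM in shCTL and 54.12, 64.25 and 72.00 TPM in shRor1. COL4A1 (ENSG00000187498.10, chromosome 13, 110801310 to 110959504, minus strand) had 21.83, 22.53 and 24.67 TPM in shCTL and 20.71, 23.79 and 28.38 TPM in shRor1. Both varied less within a condition than the other 3 of the 5 most abundant collagens, and in both the shRor1 values covered the whole shCTL range or nearly so. Their log2 fold changes were 0.09 ± 0.12 (SE) for COL4A2 and 0.07 ± 0.12 (SE) for COL4A1, with intervals from -0.19 to 0.37 and from -0.22 to 0.35. The chains of the specialised type IV networks, COL4A3 to COL4A6, did not exceed 0.79 TPM in any library.

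Type VI collagen forms beaded filaments close to cells. COL6A1 (ENSG00000142156.10, chromosome 21, 47401684 to 47424964, plus strand) had 31.34, 35.36 and 54.76 TPM in shCTL and 34.31, 56.76 and 72.60 TPM in shRor1. COL6A2, its neighbour on chromosome 21 (47518026 to 47552762, plus strand), had 32.01, 36.00 and 47.74 TPM in shCTL and 33.15, 42.52 and 57.87 TPM in shRor1. Within each condition COL6A1 spread over 1.75-fold in shCTL and 2.12-fold in shRor1, the latter the widest of the 17 tested collagens in that condition. With this spread the log2 fold change of 0.40 ± 0.29 (SE) for COL6A1 had an interval from -0.28 to 1.08, and that of COL6A2 was 0.19 ± 0.22 (SE). COL6A3, the large chain with which both assemble, was near the floor at 0.25, 0.25 and 0.47 TPM in shCTL and 0.25, 0.33 and 0.51 TPM in shRor1, COL6A6 reached 0.02 TPM at most and COL6A5 was listed at 0 in all 6 libraries.

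Fibrillar collagens, the rods of connective tissue fibers, were represented by 4 tested genes of 11. COL5A1, a chain of the type V collagen that limits fiber diameter, led with 16.04, 18.35 and 28.12 TPM in shCTL and 20.13, 23.87 and 37.12 TPM in shRor1 (ENSG00000130635.11, chromosome 9, 137533649 to 137736689, plus strand). Its log2 fold change was 0.35 ± 0.26 (SE), and the shCTL library with the highest value lay above 2 of the shRor1 libraries. COL27A1, also on chromosome 9, had 10.28, 11.82 and 10.01 TPM in shCTL and 12.66, 12.06 and 10.09 TPM in shRor1 (0.10 ± 0.12, SE). COL1A1, the main chain of type I collagen, had 7.63, 7.30 and 13.87 TPM in shCTL and 8.43, 7.25 and 11.15 TPM in shRor1, with a log2 fold change of -0.06 ± 0.25 (SE) and an interval from -0.64 to 0.52. COL5A2 just passed the filter at 1.35, 0.97 and 1.41 TPM in shCTL and 1.77, 0.91 and 1.47 TPM in shRor1. The classical interstitial chains COL1A2 and COL3A1 did not exceed 0.14 and 0.10 TPM, COL2A1 reached 0.07 TPM, and COL11A1 and COL11A2 reached 0.11 and 0.75 TPM.

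Fiber-associated collagens with interrupted triple helices decorate the surface of fibers. COL12A1 (ENSG00000111799.16, chromosome 6, 75794042 to 75915983, minus strand) was the most abundant of them, with 21.22, 20.01 and 20.09 TPM in shCTL and 23.92, 17.54 and 15.43 TPM in shRor1. The shCTL libraries lay within 1.06-fold of each other, whereas the shRor1 libraries lay on both sides of them over a 1.55-fold range, and the log2 fold change was -0.13 ± 0.15 (SE). COL9A2, a cartilage-type chain, had 3.46, 4.08 and 5.83 TPM in shCTL and 3.56, 3.23 and 4.70 TPM in shRor1 (-0.16 ± 0.19, SE). COL16A1 had 3.70, 2.00 and 2.48 TPM in shCTL and 3.93, 2.39 and 3.30 TPM in shRor1 (0.18 ± 0.21, SE). Both overlapped between the conditions, and the other 7 members of the class were under the filter.

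The remaining 4 classes were each represented by a single tested gene. COL18A1, a basement membrane proteoglycan core that releases endostatin, had 10.49, 11.87 and 13.90 TPM in shCTL and 11.44, 18.04 and 16.75 TPM in shRor1, with a log2 fold change of 0.31 ± 0.18 (SE) and an unadjusted limma p of 0.124. COL8A1, of short chain networks, was the steadiest collagen of more than 10 TPM at 15.00, 13.37 and 15.40 TPM in shCTL and 14.79, 15.11 and 15.59 TPM in shRor1, and its interval of -0.16 to 0.27 was the narrowest of the 17. COL7A1, which forms the anchoring fibrils below epithelia, had the largest log2 fold change of the family, 0.44 ± 0.21 (SE; interval -0.05 to 0.94, unadjusted limma p = 0.0715, exact permutation p = 0.2). Its values were 1.65, 1.64 and 2.43 TPM in shCTL and 1.94, 3.32 and 3.75 TPM in shRor1, so that 2 shRor1 libraries lay above all controls and one among them. COL28A1, a von Willebrand domain collagen, was the only tested member whose conditions did not overlap. It had 1.84, 1.96 and 1.76 TPM in shCTL and 2.51, 2.42 and 2.23 TPM in shRor1. Its log2 fold change was 0.25 ± 0.12 (SE; interval -0.03 to 0.52) with an unadjusted limma p of 0.0737 and an exact permutation p of 0.1, the smallest that 3 against 3 allows. Among all tested genes the conditions did not overlap in 7.78% (6.48% higher and 1.3% lower in shRor1), so 1 gene of 17 is near the background.

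Below the filter, 26 of the 27 members never reached 1 TPM, and 8 were below 0.1 TPM in every library. COL9A3 reached 1 TPM in the third library of each condition only, with 0.52, 0.55 and 1.54 TPM in shCTL and 0.56, 0.87 and 1.77 TPM in shRor1. COL22A1 and COL6A5 were listed at 0 throughout, and 34 of the 44 members were above 0 in all libraries. In 4 of the untested members the conditions did not overlap, where 5.99% of the genes under the filter with any value above 0 did not. COL21A1 had 0.05, 0.06 and 0.06 TPM in shCTL and 0.15, 0.16 and 0.28 TPM in shRor1, and COL4A6 had 0.49, 0.79 and 0.54 TPM against 0.46, 0.37 and 0.45 TPM. COL14A1 had 0.06 to 0.11 TPM in shCTL and 0.00 to 0.03 TPM in shRor1, and COL23A1 had 0.04 to 0.11 TPM in shCTL and was listed at 0 in all shRor1 libraries. At 2 decimals and without read counts, values of this size give no interval and no fold change.

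Chains that assemble into a common trimer were set side by side. COL4A1 and COL4A2 kept a ratio of mRNA between 0.370 and 0.406 TPM of COL4A1 per TPM of COL4A2 over the 6 libraries. The means were 0.389 ± 0.0147 (SD, n = 3) in shCTL and 0.382 ± 0.0119 (SD, n = 3) in shRor1. How this ratio relates to that of the chains in the protein was not tested. The COL6A1 to COL6A2 ratio ran from 0.979 to 1.15 in shCTL and from 1.03 to 1.33 in shRor1. COL5A1 exceeded COL5A2 between 11.4-fold and 26.2-fold. In all of these pairs the ratios of the conditions overlapped. For COL1A1, COL6A1 and COL9A2 a partner was under the filter, and no ratio is given. COL1A2 ran from 0.04 to 0.14 TPM and COL6A3 from 0.25 to 0.51 TPM over the 6 libraries.

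**Figure D3:**
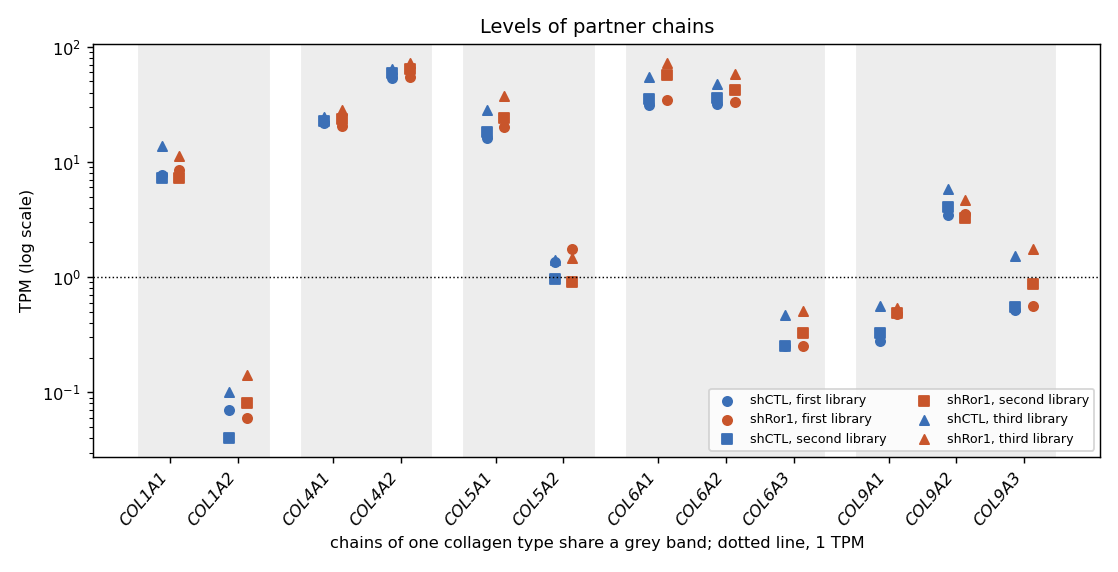
Levels in TPM on a log axis of chains that assemble together, for types I, IV, V, VI and IX, with 1 point for each library (symbols as library order, blue shCTL, orange shRor1) and 1 TPM as a dotted line. COL4A1 and COL4A2 run in parallel, whereas COL1A2 and COL6A3 lie below 1 TPM and far under COL1A1 and COL6A1.

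The COL4A1 and COL4A2 genes lie head to head. In RefSeq (GRCh38.p14) their annotated starts are 127 bases apart on chromosome 13, so that the windows of 300 bases around each start (250 before and 50 after it) share 226 bases. The pairs COL4A4 and COL4A3, 419 bases apart, and COL4A6 and COL4A5, 380 bases apart, have the same arrangement but were all under the filter. A window was found for 32 of the 44 collagen genes, and for 13 of the 17 tested ones. The promoters of 3 genes are shown because they belong to the most abundant collagens with a window, upstream of the start on the plus strand, and for COL4A2 as the bases between both starts. Capitals mark 3 motifs on either strand. The TATA box was searched as TATAAA. The CCAAT box was searched by the letters of its name. The GC box was searched as GGGCGG.
COL13A1, GRCh38.p14, chr10:69801656-69801905: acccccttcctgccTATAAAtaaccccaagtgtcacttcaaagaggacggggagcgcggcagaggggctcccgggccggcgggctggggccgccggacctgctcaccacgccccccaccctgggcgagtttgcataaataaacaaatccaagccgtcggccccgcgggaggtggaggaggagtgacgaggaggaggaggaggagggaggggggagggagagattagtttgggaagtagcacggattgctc
COL4A2, GRCh38.p14, chr13:110307158-110307283: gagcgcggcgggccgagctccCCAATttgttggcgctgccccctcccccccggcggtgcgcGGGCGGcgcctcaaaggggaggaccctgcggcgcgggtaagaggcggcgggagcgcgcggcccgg
COL6A2, GRCh38.p14, chr21:46097862-46098111: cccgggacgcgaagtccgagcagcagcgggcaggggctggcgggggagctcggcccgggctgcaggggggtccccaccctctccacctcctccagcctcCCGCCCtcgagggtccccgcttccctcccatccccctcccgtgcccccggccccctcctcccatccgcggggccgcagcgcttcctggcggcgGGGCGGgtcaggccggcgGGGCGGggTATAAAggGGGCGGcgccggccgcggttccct
COL6A2 has a TATA box 32 bases before its start between GC boxes at 58, 40 and 24 bases, and a further GC box on the opposite strand at 151 bases. In COL13A1 the only match is a TATA box 236 bases before the start, and between COL4A1 and COL4A2 a CCAAT box and a GC box lie 105 and 65 bases before the start of COL4A2. Searched on both strands, a GC box was present in 80.0% of the 15 windows of tested collagen genes, in 41.4% of the 29 windows of collagen genes under the filter and in 45.0% of all 35116 windows. The TATA box was present in 33.3%, 10.3% and 11.5%, and the CCAAT box in 26.7%, 34.5% and 34.6%. The median number of CpG dinucleotides per window was 29, 14 and 14. Windows of all tested genes were not counted apart. Whether these values differ from those of expressed genes at large was not tested. Windows of 1 gene overlap and those of COL4A1 and COL4A2 share bases, so the 15 windows are not independent, and a match is a description of the letters only.

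The spread of the collagen genes within a condition followed a pattern. In 10 of the 17 tested collagen genes (58.8%) the third library of the table was the highest in both conditions, against 33.6% of all tested genes. COL13A1, COL6A1, COL6A2, COL5A1, COL4A1, COL4A2, COL1A1, COL9A2, COL7A1 and COL8A1 were those 10. In COL6A1 the third library exceeded the first by 0.79 on the log2(TPM + 1) scale in shCTL and by 1.06 in shRor1, for COL5A1 by 0.77 and 0.85, and for COL13A1 by 0.56 and 0.74, each larger than the difference between the conditions. COL12A1 ran the other way, with -0.08 and -0.60, as did COL16A1, with -0.43 and -0.20. The median standard deviation within a condition was 0.27 for the tested collagens and 0.15 for all tested genes, on the log2(TPM + 1) scale. In 5 of the 17, COL13A1, COL18A1, COL7A1, COL28A1 and COL17A1, the difference between the conditions exceeded the standard deviation of the gene itself, as it did in 26.3% of all tested genes.

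**Figure D4:**
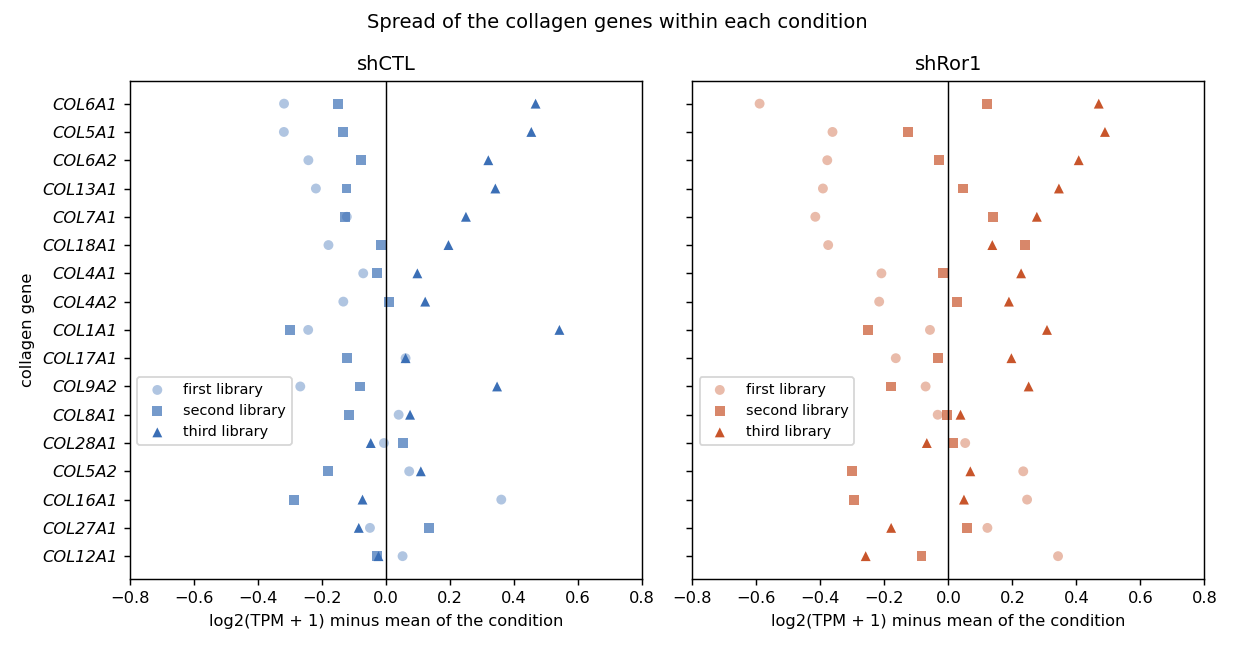
Deviation of each library from the mean of its condition on log2(TPM + 1), for the 17 tested collagen genes in shCTL (left) and shRor1 (right), ordered by the difference of the third and the first shRor1 library. In the upper rows the third library (triangles) lies to the right and the first (circles) to the left in both conditions, and for COL12A1 in shRor1 the order is turned.

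The same 2 libraries stood apart over all genes. After removal of the condition means, the leading component of the residuals held 40.8% of their variance and had loadings of 0.55 for the third shCTL and 0.60 for the third shRor1 library, against -0.34 to -0.21 for the other 4. The difference between the third and the first library in shCTL and that in shRor1 had a Pearson r of 0.80 and a Spearman rho of 0.81 across the 17 collagens, and 0.50 and 0.53 across 15066 genes. These are descriptions across genes measured in the same libraries, and genes are not replicates. The leading component was also entered as a covariate, a choice made after the data were seen. It comes from the residuals of these same libraries, so lower standard errors for genes that follow it were built in. The log2 fold changes of the 17 collagens stayed the same. The standard error went from 0.26 to 0.11 for COL5A1, from 0.21 to 0.12 for COL13A1 and from 0.21 to 0.22 for COL16A1. In this fit 3 collagens had an unadjusted p below 0.05 in limma (COL5A1 0.0134, COL13A1 0.0229 and COL7A1 0.0324). Over all genes 6.40% reached it.

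Among the tested collagens, transcript composition went along with this spread. Over all tested genes this was seen in shCTL but not in shRor1. All tested genes with a canonical transcript were divided into 5 bands of equal size by its GC content. Of the 17 tested collagens 11 fell into the highest band, 57.7% to 75.6% GC, 2 into the next, 4 into the middle one and none into the lower 2. In these 11 the third library exceeded the first by a median of 0.56 in shCTL and 0.51 in shRor1 on the log2(TPM + 1) scale, where the 3013 genes of the same band had medians of 0.17 and 0.06. The 4 collagens of the middle band, COL12A1, COL8A1, COL28A1 and COL5A2, had medians of -0.003 and -0.14. Over all genes of the lowest band the medians were -0.004 in shCTL and 0.13 in shRor1. Across the 17 collagens the GC content and the difference between the third and the first library had a Pearson r of 0.52 in shCTL and 0.62 in shRor1 (Spearman rho 0.54 and 0.50), and across 15066 genes r was 0.24 and -0.04. COL27A1 and COL16A1 were exceptions, with 61.3% and 62.4% GC and no excess in the third library. The part of transcript composition in the spread of the collagen genes was not tested.

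**Figure D5:**
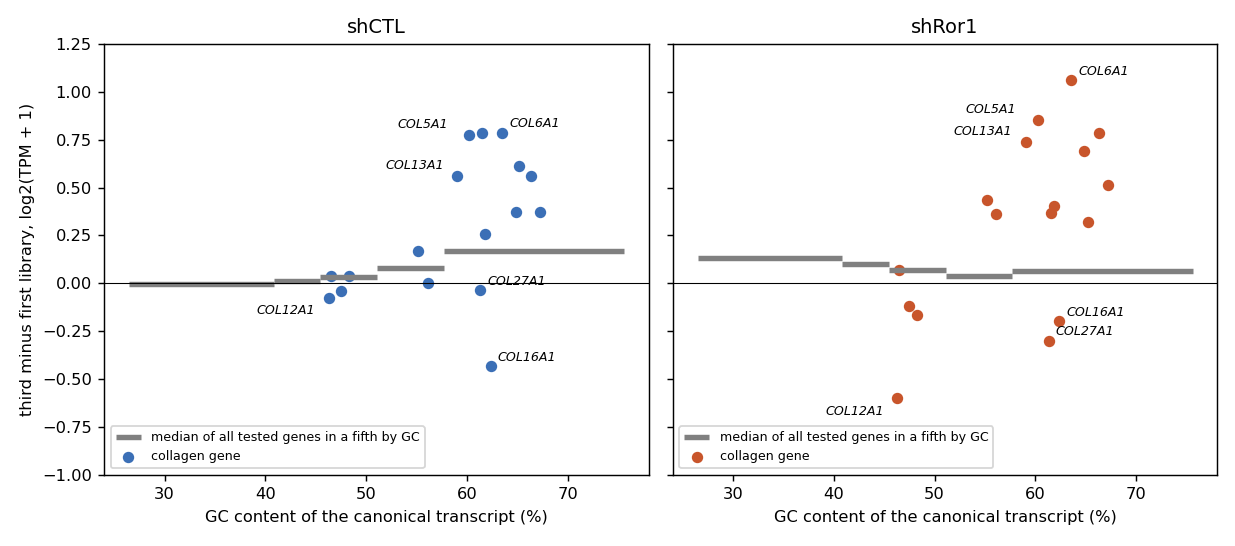
Difference of the third and the first library on log2(TPM + 1) against the GC content of the canonical transcript for the 17 tested collagen genes (points), in shCTL (left) and shRor1 (right), with the median of all tested genes in each of 5 GC bands (grey bars). Of the 11 collagens in the highest band, 9 lie between 0.26 and 1.06, above the grey bars, and COL16A1 and COL27A1 lie below 0 in both conditions.

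Leaving out a library changed which collagens had an unadjusted limma p below 0.05. Without the first shRor1 library, 5 of the 17 tested collagens had such a value, against 10.4% of all genes. COL7A1 (0.00863), COL18A1 (0.00943), COL13A1 (0.0231) and COL6A1 (0.0274) were higher in shRor1, and in them the left-out library was the lowest of the condition. COL12A1 (0.0217) was lower in shRor1, with a log2 fold change of -0.30, and in it the left-out library was the highest. Without the third shCTL library there were 3 of the 17, COL13A1 (0.0335), COL7A1 (0.0422) and COL5A1 (0.0456), all higher in shRor1, against 4.03% of all genes. Without a mean-variance trend in limma there was 1, COL28A1 (0.0221), and 3.50% of all genes. In none of these 3 fits did a collagen gene have an adjusted p below 0.05.

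Making a collagen requires hydroxylation of proline and lysine, chaperones of the endoplasmic reticulum, enlarged transport carriers and cleavage of the propeptides. Of 33 genes listed for these steps 27 were tested, 21 lay above and 6 below 0, and none had an unadjusted p below 0.05 in limma. Their median log2 fold change was 0.08, near the 0.05 of all genes. PPIB had 796.85, 725.74 and 775.36 TPM in shCTL and 776.57, 710.56 and 794.55 TPM in shRor1, and P4HB, the shared subunit of the prolyl 4-hydroxylases, had 627.64, 570.68 and 684.34 TPM against 640.47, 619.95 and 760.54 TPM. CRTAP, of the prolyl 3-hydroxylase complex, was at 268 ± 12.5 TPM in shCTL and 282 ± 6.58 TPM in shRor1 (SD, n = 3). P4HA1, a catalytic subunit of prolyl 4-hydroxylase, had 46.49, 51.83 and 50.51 TPM in shCTL and 45.13, 84.03 and 75.62 TPM in shRor1, with 2 shRor1 libraries high and the first at the control level (log2 fold change 0.41 ± 0.21, SE).

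Of the 27 genes only PLOD3 and MIA2 did not overlap between the conditions, against 7.78% of all tested genes. PLOD3, a lysyl hydroxylase, had 132.77, 133.28 and 137.45 TPM in shCTL and 148.74, 149.73 and 144.45 TPM in shRor1 (0.13 ± 0.06, SE, unadjusted limma p = 0.0598, exact permutation p = 0.1). PLOD1 had 70.0 ± 6.14 TPM against 83.3 ± 12.9 TPM and COLGALT1, which adds galactose to hydroxylysine, 102.8 ± 1.29 TPM against 102.4 ± 5.51 TPM (SD, n = 3). PLOD2, which hydroxylates lysine in telopeptides, had the pattern of P4HA1, with 68.78, 70.21 and 62.20 TPM in shCTL and 64.58, 101.23 and 85.01 TPM in shRor1. The collagen chaperone SERPINH1 was at 182.65, 167.49 and 164.91 TPM in shCTL and 169.83, 154.03 and 162.17 TPM in shRor1, and FKBP10 and SEC23A, a prolyl isomerase and a coat protein of transport carriers, stood at 133.4 ± 18.0 and 121.8 ± 5.76 TPM in shCTL and 140.6 ± 13.8 and 128.1 ± 16.5 TPM in shRor1 (SD, n = 3). Only 3 of 8 genes of propeptide cleavage were tested. These were PCOLCE2 (17.6 ± 1.38 against 16.5 ± 2.78 TPM), BMP1, the procollagen C-proteinase (8.50 ± 1.33 against 10.1 ± 1.48 TPM), and PCOLCE (7.78 ± 0.45 against 9.54 ± 1.57 TPM), and the N-proteinases ADAMTS2, ADAMTS3 and ADAMTS14 were under the filter.

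Of 14 listed collagen receptor genes 9 were tested, 7 above and 2 below 0, with a median log2 fold change of 0.28, where 67% of all tested genes lay above 0. Of these, 2 had an unadjusted limma p below 0.05, as had 2.85% of all tested genes, and both had an adjusted p of 0.984 with Benjamini-Hochberg adjustment. ITGA2, the alpha chain of a collagen-binding integrin, had 40.02, 37.36 and 37.66 TPM in shCTL and 40.05, 50.88 and 57.33 TPM in shRor1, which just did not overlap (log2 fold change 0.34 ± 0.13, SE, unadjusted limma p = 0.0298, exact permutation p = 0.1). MRC2, an endocytic receptor that takes up collagen fragments, had 8.51, 9.82 and 13.23 TPM in shCTL and 11.59, 15.97 and 16.32 TPM in shRor1 (0.45 ± 0.19, SE, unadjusted limma p = 0.0450, exact permutation p = 0.2), with overlap. ITGB1, the partner of ITGA2, had 600.08, 631.38 and 613.40 TPM in shCTL and 607.65, 758.26 and 724.92 TPM in shRor1. As for P4HA1, PLOD2 and ITGA2, the first shRor1 library of ITGB1 lay within or next to the control values. CD44 was at 446.5 ± 59.3 against 431 ± 91.6 TPM and the proteoglycan SDC1 at 91.2 ± 3.30 against 89.7 ± 7.84 TPM (SD, n = 3). The kinase receptor DDR1 had 9.63, 11.90 and 15.88 TPM in shCTL and 9.61, 16.95 and 20.78 TPM in shRor1, whereas DDR2 was under the filter.

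The cell type was checked against marker genes. The 8 markers of MDA-MB231 cells, among them VIM, summed to 5370 to 5551 TPM in all libraries, and ESR1 and PGR did not exceed 0.21 and 0.01 TPM. ERBB2 and EPCAM, listed as low in the line, were at 26.55 to 34.90 and 12.58 to 15.80 TPM. Of 10 fibroblast markers, 4 passed the filter (TAGLN, ACTA2, PDGFRB and DCN). The 10 summed to 20.18 to 23.24 TPM in shCTL and 18.70 to 25.48 TPM in shRor1, LUM and DPT were at 0 in all libraries, and THY1, FAP and PDPN did not exceed 0.20 TPM. PDGFRB was highest in the third library of both conditions, at 3.10 and 3.18 TPM. Endothelial markers summed to 0.77 to 2.25 TPM over 4 genes.

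Reads of some collagens can be divided with overlapping genes, and whether strand was used in the counting is not stated in the sources used here. COL18A1 shares 1563 exon bases with SLC19A1 on the opposite strand, which had 0.39 to 1.34 TPM. COL9A3 shares 155 exon bases with TCFL5 (27.01 to 37.36 TPM) and COL19A1 shares 85 with LMBRD1 (10.25 to 17.11 TPM), so that the values of these 2 genes of low level are uncertain. Of the genes overlapping COL7A1 and COL17A1 on the same strand, MIR711 was at 0 and MIR936 reached 0.54 TPM in 1 library, and adding them to their hosts changed no direction.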

How the data were processed

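Libraries were prepared from 1000 ng of total RNA of MDA-MB231 cells with a stranded kit and read as single reads of 50 bases, 3 for shCTL and 3 for shRor1. The labels name polyA RNA where the protocol and the paper name total RNA. Per the labels, CASAVA 1.8.2, FastQC 0.10.0, STAR, RSEM 1.2.5 and edgeR were used on build GRCh37, and the authors took gene models from Ensembl 73. The deposited values are TPM with 2 decimals, although the table is named for expected counts. TPM keeps no depth, so that no count model and no counting interval could be computed. All 6 columns were used, and 0 were left out.

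A gene entered the comparison when 3 or more libraries had 1 TPM or more, which 16554 of 57445 did. On log2(TPM + 1), limma 3.58.1 (R 4.3.3) fitted the condition as the only term, with a mean-variance trend, and p-values were adjusted over all 16554 genes by Benjamini-Hochberg at 0.05. The pseudocount understates changes of low genes. Exact two-sided permutation tests compared TPM of named genes. The fit was tested on simulated data. Genes varied independently there, unlike in these libraries, and the shifts set were larger than any collagen change. Symbols, coordinates, exons and GC content came from GENCODE 44 mapped to GRCh37 (55022 identifiers matched), promoters from RefSeq (GRCh38.p14).

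Named were ROR1, all collagen genes, biosynthesis and receptor genes with an unadjusted p below 0.05 or among the 3 most abundant of their group, and genes that share exons with a collagen. P4HA1, PLOD2, MIA2 and DDR1 were named after their values were seen. Alternatives were no filter, a mean of at least 5 TPM, a pseudocount of 0.1, quantile or median ratio scaling, protein-coding genes only, no trend, TPM summed over overlapping genes and each library left out. The members and lists were chosen with earlier results of these data known.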

Additional observations from a re-analysis of the deposited data

How the results depend on the processing

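No gene had an adjusted p below 0.05 in limma under any of the 16 alternative fits except 1 gene, no collagen, without the third shRor1 library, so leaving out libraries gave 0 to 1. The 17 collagen genes had adjusted p-values from 0.44 to 1.00 over these fits, and 9 of them kept their direction in every fit in which they were tested, the fit with a mean of at least 5 TPM testing 11. COL8A1 was at -0.0030 with median ratio scaling and at -0.020 with quantile normalization. Leaving out 1 library at a time moved the log2 fold change between -0.0027 and 0.20 for COL4A2, -0.018 and 0.37 for COL6A2, -0.048 and 0.17 for COL4A1, -0.30 and 0.0041 for COL12A1, -0.0035 and 0.092 for COL8A1, -0.21 and 0.21 for COL1A1, -0.30 and 0.0093 for COL9A2, and -0.041 and 0.23 for COL5A2. COL1A1 turned positive without the third shCTL or the second shRor1 library, and COL4A2, COL6A2, COL4A1 and COL12A1 changed sign without the third shRor1 library. The count of all genes at an unadjusted p below 0.05, 472 in the fit reported, was 227 with a mean of at least 5 TPM, 222 with protein-coding genes only and 1363 without a filter, where other numbers of genes were tested. It was 314 after GC centring and 1060 with the residual component as a covariate, both chosen after the data were seen, and 278 to 1720 without single libraries, the highest without the first shRor1 library. The cause was not tested. GC centring left 49.3% of all genes above 0, where the fit reported had 67%, and 14 of the 17 collagens. The median log2 fold change of the collagen genes ran from 0.08 to 0.21. No paired analysis was possible because libraries of a condition share one header without a number. The deposited TPM keep no depth, and values below 1 TPM were given without a test.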

Other observations

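Antisense transcripts and small RNA genes lie within several collagen genes. COL4A2-AS1, which shares 81 exon bases with COL4A2 on the opposite strand, had 0.38, 0.23 and 0.64 TPM in shCTL and 0.71, 0.43 and 0.43 TPM in shRor1, while COL4A2 itself was at 53.79 TPM or more in every library. COL5A1-AS1 was at 0.08 to 0.14 TPM, and COL18A1-AS1 and COL4A2-AS2 did not exceed 0.07 TPM. MIR455 within COL27A1, MIR3129 within COL5A2 and MIR1245A within COL3A1 were listed at 0 in all 6 libraries. MFF-DT, which shares 838 exon bases with COL4A3 on the opposite strand, had 1.48 to 2.65 TPM, above the 0.10 TPM that COL4A3 reached at most.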
